A study of Homo sapiens with 3 samples.

Results

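The genes described here are 10 textbook transcriptional targets of the tumour suppressor p53: CDKN1A, PLK2, BBC3, BAX, GADD45A, SESN1, SESN2, BTG2, FAS and TP53I3. A row of the deposited array table was taken for a member when the platform annotation gave that gene symbol and no other. This rule itself used no measured value, but the members and the lists below were chosen with earlier results of these data known. Under this rule 6 of the 10 were found, each with 1 probe set: PLK2, BBC3, BAX, TP53I3, SESN1 and SESN2. CDKN1A, GADD45A, BTG2 and FAS have no row under their name alone in the annotation used here and were not analysed. The 6 measured genes are set against 14884 named genes in all.

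The arrays (Affymetrix HuGene-2_0-st) hold RNA of BE(2)-C, an established human neuroblastoma line with extra copies of the gene for N-Myc. The line is known to carry a missense mutation in the p53 gene. The cells had received either of a pair of siRNAs against WDR5, named siRNA-1 and siRNA-2, or a control siRNA for 40 hours, and each of these 3 groups is 1 array. Every value below is therefore a single reading with no replicate error and no p-value, and a ratio sets 1 array against another. WDR5 is a scaffold subunit of the enzymes that methylate lysine 4 of histone H3, a mark of active promoters.

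When DNA damage or another stress stabilises p53, the protein binds paired half-sites in DNA and raises a set of genes. Some halt the cell cycle (CDKN1A, which encodes the CDK inhibitor p21, with BTG2, GADD45A and PLK2), some drive cell death (BBC3, BAX, FAS and TP53I3), and the sestrins SESN1 and SESN2 restrain the growth kinase complex mTORC1. Several are also raised without p53. SESN2 is a target of the stress factor ATF4, and PLK2 was first described as a serum-inducible kinase.

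The siRNAs' target served as a check of the labels: WDR5 read 9.46 in log2 level on the control array and 7.90 on each WDR5 siRNA array, which is 33.9% of control. The siRNA values are an exact tie, so they do not show that the knockdown was equal. They also cannot tell the siRNA-1 array from the siRNA-2 array. Of 12 markers of adrenergic neuroblastoma 9 were measured, and 6 of these lay above the highest of the array's 23 background rows (which run from 1.75 to 9.26 in log2 level) on every array, STMN2 and HAND2 among them. Of 8 Schwann and stromal markers 3 were measured, none above that row, and their summed linear level was 266.3 on every array. Of 7 leukocyte and endothelial markers 4 were measured, none above that row, with summed linear levels of 311 (control), 389 (siRNA-1) and 346 (siRNA-2). In the same order, CD68 read 7.75, 8.14 and 7.83 in log2 level, CD14 5.53, 5.66 and 5.81, PECAM1 4.29, 4.88 and 5.12, and KDR 4.88, 4.77 and 4.77. CD68, CD14 and PECAM1 were thus higher than control on both siRNA arrays. KDR was lower on both, its siRNA values being an exact tie. The part of these 4 genes in the results was not tested. PTPRC, CDH5, COL1A1 and PDGFRB were not analysed here. WDR5 on the siRNA arrays and all 6 p53 targets on every array also lay below the highest background row, the targets between 6.61 and 8.50 in log2 level, and no detection call was made.

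The DNA just upstream of the members is shown first for the kinase gene that differed most and for both sestrins, which differed from each other. The windows are the 250 bases before a transcription start in RefSeq (GRCh38.p14), written 5′ to 3′ on the gene's own strand. RefSeq gives SESN1 3 starts here, and the one shown is the one whose window holds a match. Capitals mark a match to the p53 half-site consensus, and all motifs were searched on both strands.
PLK2, chr5:58460087-58460336, minus strand: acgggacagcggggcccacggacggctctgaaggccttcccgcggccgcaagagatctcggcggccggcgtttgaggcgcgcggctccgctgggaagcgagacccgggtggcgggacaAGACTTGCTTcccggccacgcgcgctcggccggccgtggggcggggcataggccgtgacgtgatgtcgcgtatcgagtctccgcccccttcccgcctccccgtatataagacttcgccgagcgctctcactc
SESN1, chr6:109008989-109009238, minus strand: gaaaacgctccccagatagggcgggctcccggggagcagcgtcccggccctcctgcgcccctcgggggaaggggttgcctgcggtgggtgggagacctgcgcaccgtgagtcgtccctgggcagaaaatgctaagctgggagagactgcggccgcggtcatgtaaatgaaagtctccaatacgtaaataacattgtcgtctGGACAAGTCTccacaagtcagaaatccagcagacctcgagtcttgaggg
SESN2, chr1:28259268-28259517, plus strand: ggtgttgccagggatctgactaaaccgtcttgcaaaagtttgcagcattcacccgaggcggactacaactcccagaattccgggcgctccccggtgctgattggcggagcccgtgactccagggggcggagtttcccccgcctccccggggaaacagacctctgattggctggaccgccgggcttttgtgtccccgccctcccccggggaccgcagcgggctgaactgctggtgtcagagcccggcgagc

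The PLK2 match begins 132 bases before the start of the gene, and the SESN1 match begins 49 bases before the start shown. Each is a single match to the strict consensus, whereas a full p53 element holds a pair; imperfect half-sites beside it were not searched for. Among the 13 windows that the table gives for 9 members, 3 held a half-site: those of PLK2, 1 of SESN1 and 1 of FAS. Of all 35116 windows, 5.57% did. The windows of 1 gene can overlap, so these are not independent. The EGR1 motif (GCGNGGGCG) was found in 2 member windows, of BTG2 and FAS, and in 8.41% of all windows. The CArG box of the serum response factor, the CRE (TGACGTCA) and the C/EBP-ATF element (TGATGNAAN) were found in 0 member windows, against 1.16%, 1.65% and 3.13% of all windows. No matches overlapped each other in these windows. A match is a description of letters and not evidence of binding, and a window without one says nothing of sites further away.

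With both WDR5 siRNAs, PLK2 was the 1 measured member that stood at least 1.5-fold above control. PLK2 encodes polo-like kinase 2, a stress-inducible kinase that acts at the centrosome and, in neurons, at synapses. Its log2 level was 6.82 with control siRNA, 7.91 with siRNA-1 and 7.73 with siRNA-2. Both WDR5 siRNA arrays were thus about 1 unit higher than the control array and close to each other. The log2 ratio to control was 1.08 with siRNA-1, or 2.12-fold higher, and 0.91 with siRNA-2, or 1.88-fold higher. The arrays of the 2 siRNAs differed by 0.18, 1.13-fold. The control level lay just above the level of 6.78 that a gene's mean had to reach to be kept for counts over all genes, so the size of the fold is uncertain. The cell cycle group could not be described further, since its other members CDKN1A, BTG2 and GADD45A were not analysed.

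**Figure D1:**
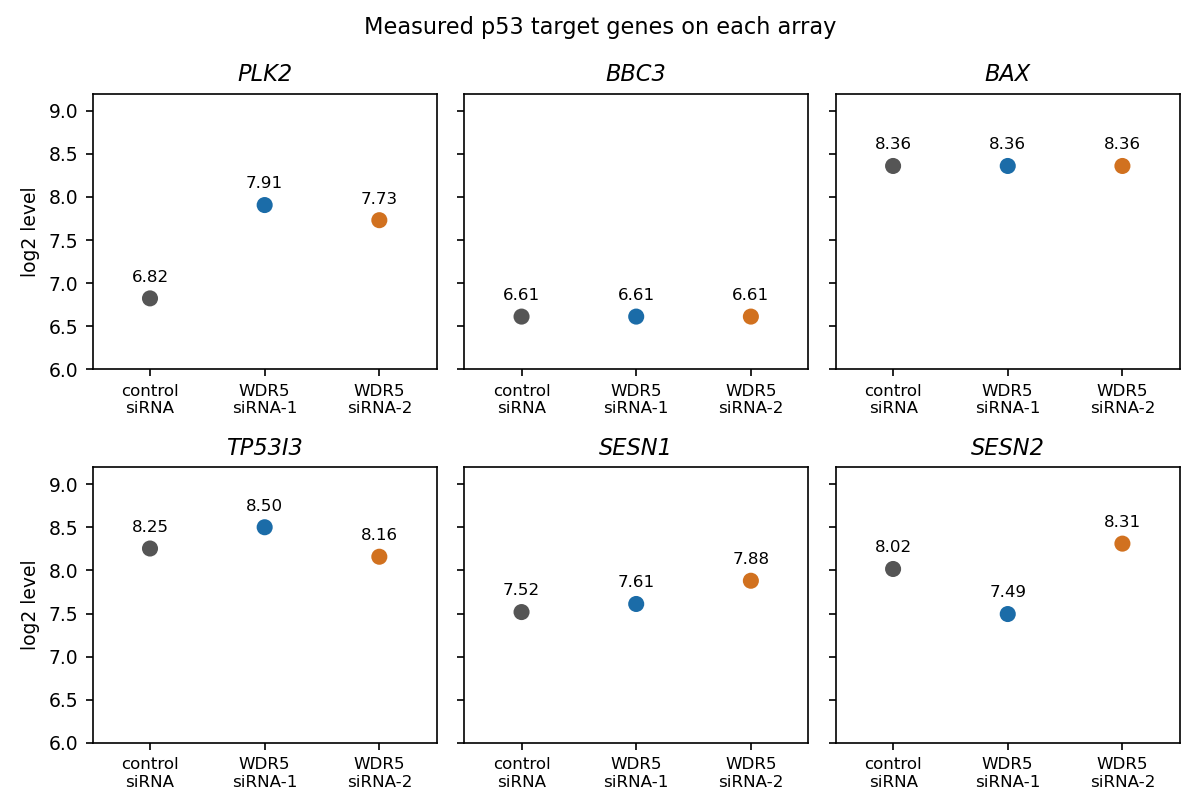
Log2 level (vertical axis) of the 6 measured p53 targets on the control, WDR5 siRNA-1 and WDR5 siRNA-2 arrays (horizontal axis); each point is 1 array, with its value printed above it. PLK2 is higher on both WDR5 siRNA arrays, BBC3 and BAX have 1 value on all 3, and SESN2 is low with siRNA-1 and high with siRNA-2.

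The death genes showed no shared difference. BBC3, which encodes the BH3-only protein PUMA, read 6.61 on all 3 arrays. BAX, which encodes the pore-forming protein of the mitochondrial outer membrane, read 8.36 on all 3. Both are exact ties in the deposited table, a pattern found in 14.9% of kept genes and in 37.1% of all rows, so a ratio of 0 does not show that these transcripts were equal. BBC3 had too low a mean level to be kept.

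TP53I3, also called PIG3, encodes a quinone oxidoreductase linked to oxidative stress in p53-driven death. Its log2 level was 8.25 with control siRNA, 8.50 with siRNA-1 and 8.16 with siRNA-2. The siRNA-1 array was highest and the siRNA-2 array slightly below control. The ratios were 0.25 and -0.10 on the log2 scale, or 1.19-fold higher and 1.07-fold lower. FAS, the death receptor of the group, was not analysed.

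The sestrins lay on opposite sides of control with siRNA-1 and on the same side with siRNA-2. SESN1 was at a log2 level of 7.52 with control siRNA, 7.61 with siRNA-1 and 7.88 with siRNA-2, so the control array was the lowest. That is 1.07-fold higher with siRNA-1 (log2 ratio 0.09) and 1.29-fold higher with siRNA-2 (0.36). SESN2, which encodes a leucine sensor that inhibits mTORC1, was at 8.02 with control siRNA, 7.49 with siRNA-1 and 8.31 with siRNA-2. Control lay between the WDR5 siRNA arrays. SESN2 was 1.44-fold lower with siRNA-1 (log2 ratio -0.52) and 1.23-fold higher with siRNA-2 (0.29). The direct ratio of siRNA-1 to siRNA-2 was -0.82, 1.76-fold lower, the widest gap between the siRNAs among the 6 genes.

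Counts were made over the 5 kept targets, PLK2, BAX, TP53I3, SESN1 and SESN2, beside all 7442 kept genes. At 1.5-fold or more with both siRNAs, 1 of the 5 was higher (PLK2) and 0 were lower, where 0.618% of all kept genes were higher and 0.847% lower. For siRNA-1 taken alone the same gene was higher and 0 were lower, against 2.24% and 4.60% of kept genes. For siRNA-2 taken alone PLK2 was again the 1 higher gene and 0 were lower, against 2.19% and 4.00%. Between the siRNAs, 0 targets were higher and 1, SESN2, was lower with siRNA-1, against 4.21% and 4.65%. The siRNA comparisons share the control array, so they are not separate tests of a gene. The members were chosen with earlier results of these data known, so these counts are not independent of the data either. Counting any difference, 2 of the 5 (PLK2 and SESN1) were above control on both WDR5 siRNA arrays, 0 were below it on both, 2 (SESN2 and TP53I3) went opposite ways and BAX was tied. Among all kept genes 18.0% were higher with both, 22.3% lower with both and 25.2% opposite. The median log2 ratio of the 5 was 0.09 for siRNA-1 and 0.29 for siRNA-2 (0.05 and 0.15 over all 6 measured), where the median of all kept genes was 0 with each. With 5 genes, a single gene decides a median.

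**Figure D2:**
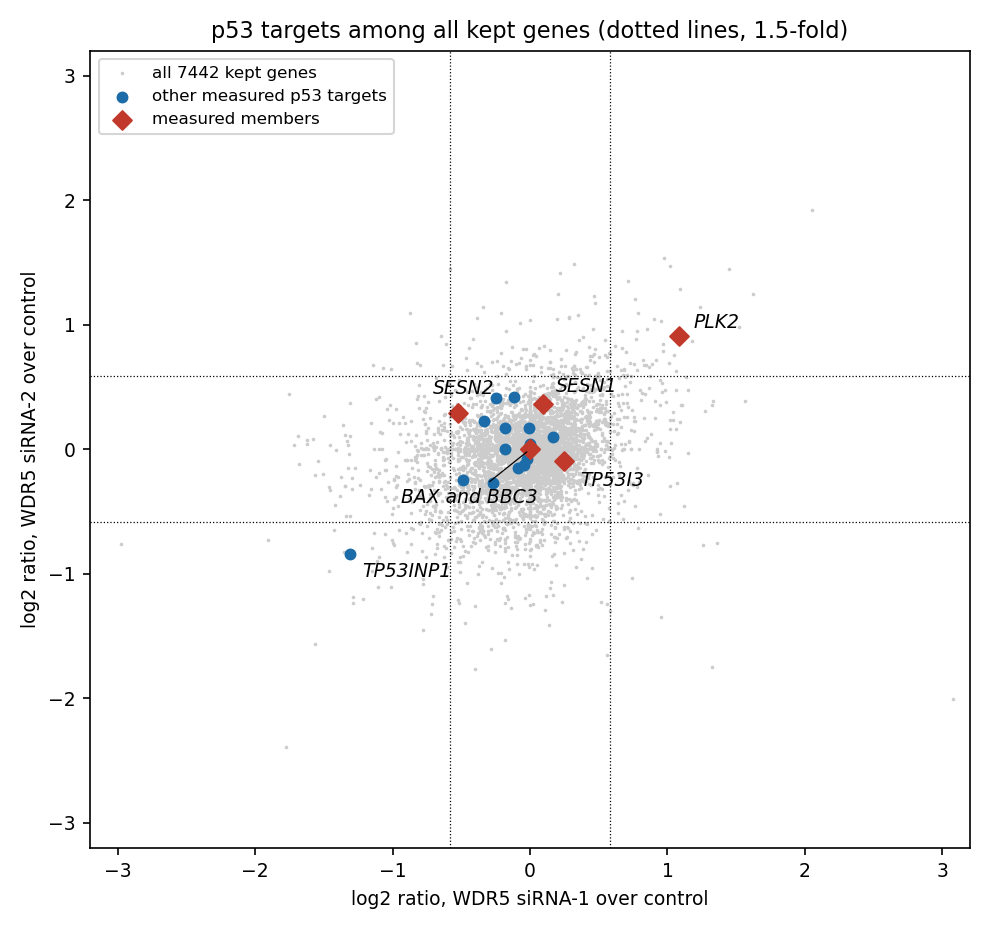
Log2 ratio to control with WDR5 siRNA-1 (horizontal axis) and siRNA-2 (vertical axis) for the 7442 kept genes (grey), the 6 measured members (red diamonds) and 23 other measured p53 targets (blue); dotted lines mark 1.5-fold. PLK2 lies beyond both lines on the high side and TP53INP1 beyond both on the low side, while the other p53 targets lie inside the square of dotted lines.

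A wider list of 40 p53 targets was read alongside the 10. Of these 23 were measured and 14 kept. At 1.5-fold with both siRNAs 0 of the 14 were higher and 0 lower, against 0.618% and 0.847% of all kept genes. Counting any difference, 1 was above control on both siRNA arrays, 3 were below it on both, 5 went opposite ways, 4 were tied on all arrays and 1 was tied with control on 1 siRNA array. The shares of all kept genes were 18.0% above on both, 22.3% below on both, 25.2% opposite and 14.9% tied on all arrays. The median log2 ratios were -0.03 and 0.00.

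The one large difference was in a gene that did not pass the filter on level. TP53INP1, a p53-induced nuclear protein linked to autophagy and cell death, stood at a log2 level of 7.38 with control siRNA, 6.07 with siRNA-1 and 6.54 with siRNA-2. Both WDR5 siRNA arrays were below control, by 2.48-fold (log2 ratio -1.31) and 1.79-fold (-0.84), opposite to PLK2. Both of its siRNA levels lay under the filter level of 6.78, so the size of its folds is uncertain too. Without the filter, 0.571% of 14884 genes were lower by 1.5-fold with both.

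The other 22 measured genes of the wider list lay within 1.5-fold of control with each siRNA. CMBL, a hydrolase gene, had log2 ratios of -0.49 and -0.25. KITLG, the gene of stem cell factor, was not kept and had -0.27 with each, its siRNA values being an exact tie. RRM2B, which encodes the p53-inducible ribonucleotide reductase subunit, was 1.12-fold and 1.07-fold higher. AEN, FBXO22, PIDD1 and PLK3, a close relative of PLK2, were the 4 kept genes tied on all 3 arrays. For FBXO22 this holds for the probe set used, and its other probe set had -0.09 and 0.06. SUSD6 (log2 ratios of -0.25 and 0.41) had the same opposite pattern as SESN2. GDF15, a secreted stress cytokine and a sensitive p53 target, had 0.00 and 0.04. Its siRNA-1 value is an exact tie with control, which does not show equal transcript levels. The tied genes, SUSD6 and GDF15 were singled out once their values were known.

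**Figure D3:**
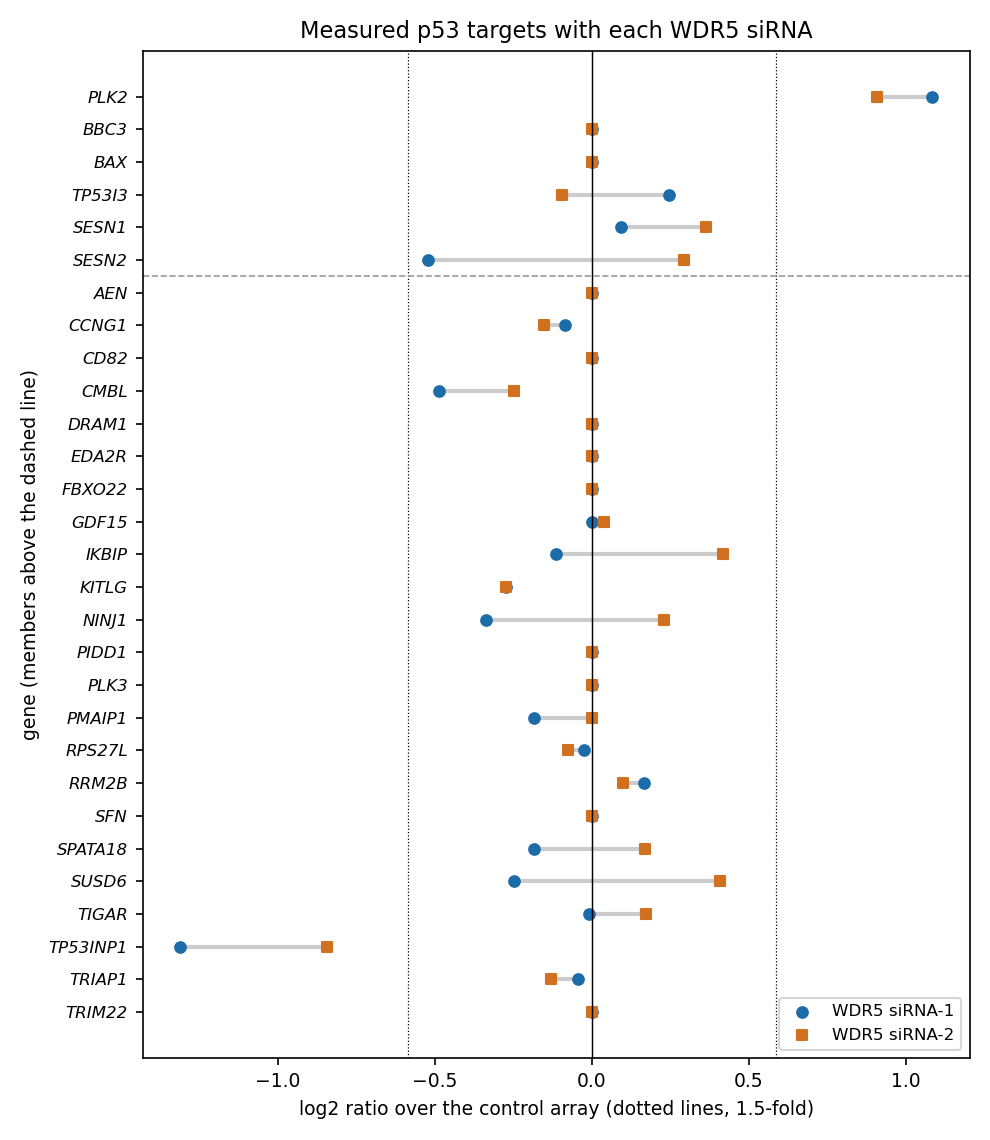
Log2 ratio to control (horizontal axis) of the 29 measured p53 targets, 1 gene a line, with WDR5 siRNA-1 as circles and siRNA-2 as squares; a square on a circle means equal ratios, and dotted lines mark 1.5-fold. PLK2 (1.08 and 0.91) and TP53INP1 (-1.31 and -0.84) are the genes past the lines, on opposite sides.

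Next came the genes that control p53, of which 13 of 20 listed were measured and kept. At 1.5-fold with both siRNAs 0 were higher and 0 lower, against 0.618% and 0.847% of all kept genes. The median log2 ratios were 0 and -0.01. CHEK2, the checkpoint kinase that phosphorylates p53 after DNA breaks, was at a log2 level of 7.98 with control siRNA, 7.62 with siRNA-1 and 7.05 with siRNA-2. Both siRNA arrays were lower, by 1.29-fold and 1.92-fold. The mean of its 2 probe sets gave log2 ratios of -0.18 and -0.47, because the other probe set was tied at 4.36 on all arrays. TP53BP1, a DNA break adaptor, had ratios of 0.08 and 0.07, and CREBBP had -0.09 and -0.01. HIPK2, a kinase that primes p53 for death signalling, differed by siRNA, with 10.4 on control, 9.54 with siRNA-1 and 10.7 with siRNA-2. MDM4, the p53 inhibitor, had log2 ratios of 0 (an exact tie) and -0.32. HIPK2 and MDM4 were singled out once their values were known. The p53 gene itself was not analysed here.

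Although CDKN1A was not analysed, the listed partners that p21 binds (kinases, cyclins and the replication clamp PCNA) were all measured, 11 of 11, with 9 kept. Of the 9, 0 were higher and 1, CCNE1, was lower by 1.5-fold with both siRNAs, against 0.618% and 0.847% of all kept genes. The median log2 ratios were -0.11 with siRNA-1 and -0.30 with siRNA-2, and 6 of the 9, CCNE1 included, lay below control on both siRNA arrays, against 22.3% of kept genes. That count takes any difference, and it includes CDK4 (-0.04 with siRNA-2) and PCNA (-0.05 with siRNA-1). Quantile normalization put CDK4 above control with siRNA-2, at 0.04. CDK4 and PCNA were singled out once their values were known. CCNE1, the gene of cyclin E1, stood at 8.36 on the control array, 6.59 with siRNA-1 and 5.98 with siRNA-2. Only the control value reached the filter level of 6.78, so CCNE1 was kept through the array where it is high, and its place in these counts is partly fixed by the filter. Its kinase partner CDK2 was at 10.4 on control, 9.01 with siRNA-1 and 10.1 with siRNA-2, 2.54-fold and 1.23-fold lower. CDK1 had log2 ratios of -0.36 and -0.30, and CDK6 of -0.11 and -0.39.

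Paralogs of the members were compared next. Of 14 listed paralogs 6 were measured, all kept, and 0 passed 1.5-fold with both siRNAs in either direction. Among all kept genes 0.618% were higher and 0.847% lower by this rule. PLK1, the mitotic polo-like kinase, had log2 ratios of -0.15 and -0.17. PLK4, which controls centriole duplication, had -0.26 and -0.57. Within the polo-like kinases, PLK2 lay above control on both siRNA arrays, PLK1 and PLK4 below it on both, and PLK3 was tied. SESN3, a sestrin raised by FOXO factors, was at a log2 level of 8.27 with control siRNA, 8.55 with siRNA-1 and 9.32 with siRNA-2. Control was the lowest array and siRNA-2 the highest, 1.22-fold and 2.08-fold higher. With siRNA-2 the log2 ratios of SESN1, SESN2 and SESN3 were 0.36, 0.29 and 1.06, and only SESN3 passed 1.5-fold. With siRNA-1 they were 0.09, -0.52 and 0.28 in the same order. The share of all kept genes above control with siRNA-2 alone was not counted, so the shared side with siRNA-2 is not read as a pattern of the sestrins.

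The sestrins act through the GATOR complexes on mTORC1, and 10 of the 15 listed genes of this pathway, the sestrins included, were measured and kept. At 1.5-fold with both siRNAs 0 were higher and 0 lower, against 0.618% and 0.847% of all kept genes, with medians of 0.05 and 0.05. SEH1L, a GATOR2 and nuclear pore subunit, was 1.56-fold and 1.18-fold higher. MTOR, the kinase, had log2 ratios of 0.16 and 0.09. WDR24, DEPDC5 and NPRL3, chosen after their values were seen, were tied on all arrays.

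In the BCL2 family, where BAX and BBC3 belong, 14 of 16 listed genes were measured and 10 kept. At 1.5-fold with both, 0 of the 10 were higher and 0 lower, against 0.618% and 0.847% of all kept genes. The medians were 0.00 and 0.02. BID, which carries death receptor signals to mitochondria, was 1.24-fold and 1.13-fold higher. MCL1, a survival protein gene, had log2 ratios of 0.12 and 0.09, and BMF, which was not kept, of -0.20 and -0.17. BCL2 itself had the opposite pattern, at 8.81 on control, 8.28 with siRNA-1 and 9.18 with siRNA-2. BCL2L11, which encodes BIM, was higher with siRNA-1 (log2 ratio 0.67) and tied with control on the siRNA-2 array. BCL2 and BCL2L11 were chosen after their values were seen. Of 11 listed genes of the death receptor pathway 2 were measured, and FADD had log2 ratios of 0.23 and 0, CFLAR of 0 and -0.09. Each 0 is an exact tie with control.

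**Figure D4:**
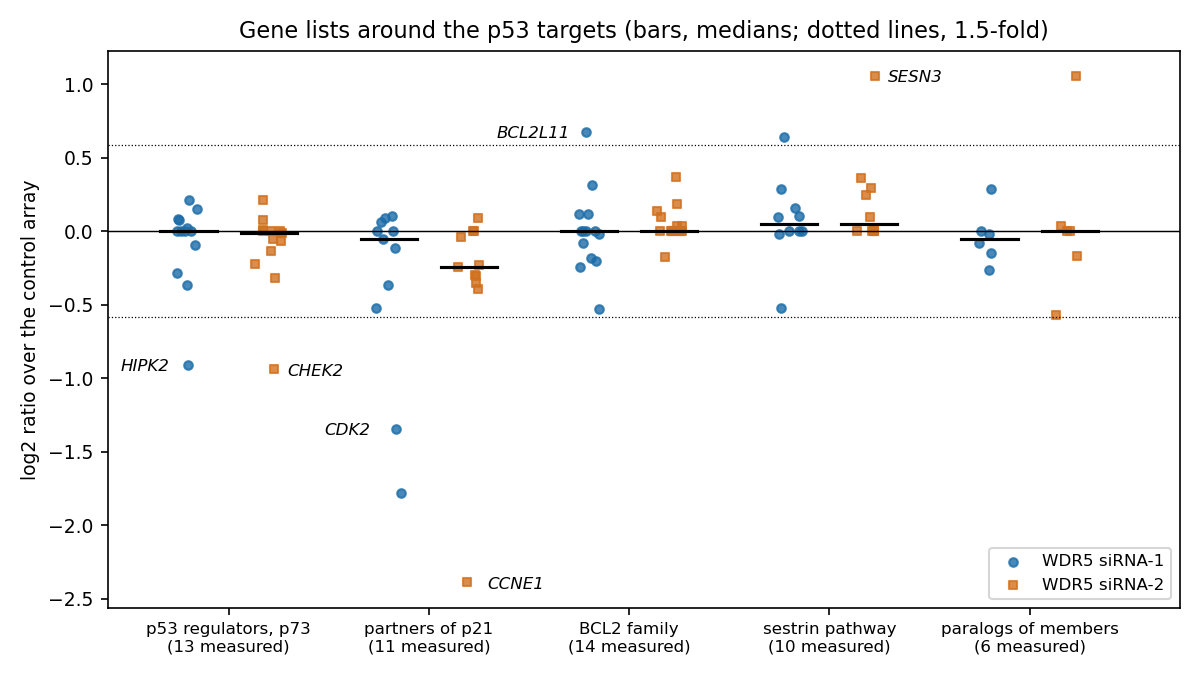
Log2 ratio to control (vertical axis) of the measured genes of 5 lists (horizontal axis), with WDR5 siRNA-1 as circles, siRNA-2 as squares, black bars for medians and dotted lines at 1.5-fold. The medians lie near 0 except for the p21 partners with siRNA-2, and CCNE1 is the gene below the lower line with both siRNAs.

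Last, genes of the other inputs that are known to raise members without p53 were read, the ATF4 arm of the stress response and the immediate-early genes. Of 14 listed, 13 were measured and 11 kept. At 1.5-fold with both siRNAs 1 of the 11 was higher (EGR1) and 0 were lower, against 0.618% and 0.847% of kept genes, with medians of 0 and 0. EGR1, an immediate-early transcription factor gene, stood at 7.93 on the control array, 9.98 with siRNA-1 and 9.84 with siRNA-2. Like PLK2, it was high on both WDR5 siRNA arrays and close between them. The mean of its 2 probe sets gave smaller log2 ratios, 1.21 and 0.99. The other probe set, at 5.48, 5.84 and 5.55, had ratios of only 0.36 and 0.06, so the large difference rests on 1 probe set. FOS and IER2, other immediate-early genes, were tied on all arrays, and JUN had log2 ratios of 0.01 and -0.01. Those 3 were singled out once their values were known. DDIT3, an ATF4 target that was not kept, was 1.80-fold and 1.14-fold higher, and DDIT4 had log2 ratios of 0.09 and 0.29. ATF3 had 0.12 with each, its siRNA values being an exact tie. Whether any of these inputs acted on PLK2 or the sestrins was not tested.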

How the data were processed

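Expression was measured on 1 Affymetrix HuGene-2_0-st array per group, per the labels. The authors deposited a table of 53617 probe sets whose values were read as log2 levels from their range; the scale is not stated in it. The array medians were 5.81, 5.79 and 5.79. The submitters' processing notes name MAS5 without a step, and other steps are not given in the sources used here.

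Names came from the platform annotation and the Entrez identifiers of RefSeq (GRCh38.p14): 16098 probe sets had 1 symbol and were used. The other 37519 had none or more than 1 here and were left out. For a gene with several probe sets the one with the highest mean was used (14884 genes), and the 7442 genes with a mean at or above the median, 6.78, were kept for counts. Ratios are differences of log2 values, and a gene counted at 1.5-fold in the same direction with both siRNAs. No test was possible with 1 array a group, and the number of arrays limits the precision. The rule for counts was checked on simulated arrays.

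Named genes are all measured members, WDR5, and up to 4 genes of each list with the largest smaller ratio in the same direction with both siRNAs. FADD and CFLAR did not meet this rule and are named as the only measured genes of the death receptor pathway. Genes singled out after their values were seen, or flagged for opposite directions, are named outside it. The members and lists were chosen with earlier results of these data known. Alternatives were array centring, quantile normalization, the mean of probe sets, no filter, a 75th percentile filter, and 1.3-fold and 2-fold thresholds. Analyses used Python 3.11.15, numpy 2.4.6, pandas 2.3.3 and matplotlib 3.10.9.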

Additional observations from a re-analysis of the deposited data

Results flagged for a closer look

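Several results differed in direction between the siRNAs, each on 1 array, and none of these differences was tested. Among the p53 targets, SESN2 was below control with siRNA-1 and above it with siRNA-2, with a log2 ratio of siRNA-1 to siRNA-2 of -0.82. TP53I3 went the other way, above control with siRNA-1 and below it with siRNA-2, with a ratio between the siRNAs of 0.34. Its siRNA-2 ratio to control was only -0.10, and -0.02 under quantile normalization. Members were flagged at any size of difference, and other genes only where the siRNAs differed by at least 1.5-fold. In the wider lists, SUSD6 (-0.66), HIPK2 (-1.12) and BCL2 (-0.90) were each below control with siRNA-1 and above it with siRNA-2. The adrenergic marker genes DBH, of noradrenaline synthesis, and CHGA, of secretory granules, had the same pattern, with log2 ratios of siRNA-1 to siRNA-2 of -1.32 and -1.20. Among all kept genes, 25.2% lay on opposite sides of control with the siRNAs at any size of difference. The share that also differed by 1.5-fold between the siRNAs was not counted.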

How the results depend on the processing

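All 54 recomputed log2 ratios of the 6 measured p53 targets moved by less than 0.1 under array centring, quantile normalization and the mean of probe sets; the last changes nothing for them, since each has 1 probe set. PLK2 ranged from 1.08 to 1.11 with siRNA-1 and from 0.91 to 0.97 with siRNA-2. Quantile normalization gave the tied BAX 0.02 and 0.06, and it brought TP53I3 with siRNA-2 to -0.02. The count of targets higher with both siRNAs went from 1 to 0 with the 75th percentile filter, which keeps 0 of the 6, and to 0 at 2-fold, as did the count for siRNA-2 alone; for siRNA-1 alone it was 0 with the 75th percentile filter. At 1.3-fold, 1 of the 5 kept targets (SESN2) was lower with siRNA-1, against 9.58% of all kept genes. Without the filter, the siRNA-2 median of the members was 0.15 and the siRNA-1 median of the death genes was 0. The 2-fold threshold left PLK2 higher with siRNA-1 only. Of all kept genes, 0.524% were higher by 2-fold with siRNA-1, 0.390% with siRNA-2 and 0.0806% with both. No paired analysis was possible because each group held 1 array. The alternatives for WDR5 and for genes that are no members were added after seeing the data; 215 of their 222 values moved by less than 0.1, and the other 7 moved with the mean of probe sets (EGR1, CHEK2, ISL1 and BMF).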
